A study of Rattus norvegicus with 6 samples.

Results

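Voltage-gated sodium channel subunits were followed across 3 groups of rat dorsal root ganglia, the ganglia that hold the cell bodies of sensory neurons. The 9 genes, taken by symbol from a table of 22864 genes, were the alpha subunits Scn1a, Scn3a, Scn8a, Scn9a, Scn10a and Scn11a and the beta subunits Scn2b, Scn3b and Scn4b. All 9 were in the table and all 9 were among the 15531 genes tested. Bulk RNA sequencing was done on L4 to L6 ganglia of the ipsilateral side, taken on day 7 from wild-type rats. In the CPIP+ETA and CPIP+Veh groups an O-ring had been placed at the ankle of a hind limb for 3 h, with the rat anaesthetised, and then taken off. The Sham+Veh group had the anaesthesia and no ring. Etanercept (ETA), a decoy receptor that captures the cytokine TNF, or vehicle (Veh) was given intrathecally each day, starting 2 days after the procedure, so that CPIP+ETA differs from CPIP+Veh by the drug and from Sham+Veh by both ring and drug. Each group had 2 libraries, and the labels do not say whether they came from separate animals, so the p-values measure the spread between these libraries, which may be technical. The labels state neither the age of the rats nor the number pooled for a library, and they give a ring size for male rats.

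An alpha subunit forms the pore of the channel and can carry current alone, and beta subunits bind to it, alter its gating and act as adhesion molecules. Scn9a (Nav1.7) amplifies small depolarisations in nociceptors, Scn10a (Nav1.8) carries much of the upstroke of their action potential, and Scn11a (Nav1.9) passes a persistent current near the resting potential. The Scn10a and Scn11a channels resist tetrodotoxin, a toxin that blocks the other alpha subunits described here. Scn8a (Nav1.6) is the main channel of nodes of Ranvier, Scn1a (Nav1.1) is carried by myelinated sensory neurons, and Scn3a (Nav1.3) is an embryonic channel known in rats to reappear in sensory neurons after their axon is cut.

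Library totals ran from 18285251 to 19981250 counts, and the 9 subunits took 0.235% to 0.257% of them. Markers of sensory neurons, the cells that define the labelled tissue, were high in every library. The 8 pan-neuronal markers summed to between 10030 and 10910 CPM (read counts scaled to library size, with TMM factors) in every library, and the 8 nociceptor markers to between 5211 and 5703 CPM. Of the 8 spinal cord markers, the oligodendrocyte factor Olig2, the inhibitory neuron transporter Slc32a1 and the forebrain factor Neurod2 had no count in 5, 5 and 4 of the 6 libraries and at most 0.0545 CPM in any. As a forebrain factor, Neurod2 does not bear on spinal cord tissue. The glutamate transporter Slc17a7, which sensory neurons carry too, made most of that list's sum of 233 to 268 CPM. The other 4 had counts in every library, with the glial filament Gfap, which peripheral glia can carry, at 10.99 to 20.98 CPM, the motor neuron enzyme Chat at 0.101 to 0.202 CPM and the oligodendrocyte protein Mog at 0.109 to 1.08 CPM. The astrocyte water channel Aqp4 stood at 4.18 and 0.381 CPM in CPIP+ETA, 4.15 and 1.31 CPM in CPIP+Veh, and 0.866 and 1.04 CPM in Sham+Veh. It was higher in both CPIP+Veh than in both Sham+Veh libraries, as were 17.6% of all genes tested. Skeletal muscle markers varied most between libraries, at 10.9 and 48.6 CPM in CPIP+ETA, 16.9 and 85.0 CPM in CPIP+Veh, and 16.6 and 29.2 CPM in Sham+Veh. Schwann cell myelin markers summed to 9550 and 13880 CPM in CPIP+ETA, 13990 and 11640 CPM in CPIP+Veh, and 12000 and 14370 CPM in Sham+Veh. The part of these differences in the values below was not tested. In bulk tissue, fewer cells of a type and less RNA per cell cannot be told apart.

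The start regions of these genes are shown because the members differ widely in base composition there. RefSeq start regions of the GRCr8 build, 250 bases before and 50 after a gene's start, were matched for 7 members. They are 5′ to 3′ on the gene's own strand, with each CpG, a C followed by a G, in capitals. The regions shown are those of Scn8a (chr7:133860977-133861276, plus strand), Scn10a (chr8:128340249-128340548, minus strand) and Scn11a (chr8:128444669-128444968, minus strand).
Scn8a: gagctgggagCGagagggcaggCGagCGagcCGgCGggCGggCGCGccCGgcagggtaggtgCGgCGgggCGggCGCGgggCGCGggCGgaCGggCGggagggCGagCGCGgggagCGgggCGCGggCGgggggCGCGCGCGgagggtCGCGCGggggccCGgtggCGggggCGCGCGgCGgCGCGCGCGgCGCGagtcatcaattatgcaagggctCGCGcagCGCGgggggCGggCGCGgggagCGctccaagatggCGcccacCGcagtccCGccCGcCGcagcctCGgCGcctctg
Scn10a: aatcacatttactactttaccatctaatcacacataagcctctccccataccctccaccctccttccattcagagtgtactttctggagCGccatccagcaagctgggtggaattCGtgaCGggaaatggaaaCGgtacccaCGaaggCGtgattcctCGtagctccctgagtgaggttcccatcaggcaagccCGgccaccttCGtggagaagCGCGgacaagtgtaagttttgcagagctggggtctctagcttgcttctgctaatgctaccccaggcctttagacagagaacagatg
Scn11a: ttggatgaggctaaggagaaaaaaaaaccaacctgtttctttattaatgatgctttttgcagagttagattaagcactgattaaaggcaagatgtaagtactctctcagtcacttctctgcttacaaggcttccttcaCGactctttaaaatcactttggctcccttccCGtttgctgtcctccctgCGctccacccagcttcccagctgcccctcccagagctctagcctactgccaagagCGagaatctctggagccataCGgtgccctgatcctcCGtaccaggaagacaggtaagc

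The Scn8a region held 60 CpGs, more than 99.9% of the 33469 regions in the table. The nociceptor genes Scn10a and Scn11a held 11 and 6, beside a median of 7 over all regions, with quartiles of 3 and 19. Scn9a held 9 CpGs, Scn3a 7, Scn4b 24 and Scn2b 2. The GC box GGGCGG, searched on both strands and itself holding a CpG, was found 7 times in Scn8a and in none of the other 6 members, against 33.1% of all regions with at least 1 match. The TATA box TATAAA, searched on both strands, was in none of the 7, and 14.2% of all regions held it. These counts describe the windows, and no level or difference below was tested against them.

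Some of the members lie close to other genes of the family in the genome. In the gene order of GRCr8, Scn1a and Scn9a are next to each other with 0 coding genes between them, and Scn9a is next to Scn7a. Scn3a is next to Scn2a, which 4 coding genes part from Scn1a. Scn2b and Scn4b are next to each other, and 1 coding gene parts Scn10a from Scn11a. Scn3b, and Scn8a on chromosome 7, were not among these neighbours.

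In every library the reads of the 9 genes fell in one order, from Scn10a at the top through Scn4b, Scn11a, Scn9a, Scn1a, Scn8a, Scn3b and Scn2b to Scn3a at the bottom. This is an order of reads in CPM, with no correction for transcript length, so it does not rank transcripts, and the beta subunit genes code for much shorter proteins than the alpha subunit genes. Over the 6 libraries the ranges of neighbours in this order overlapped for Scn10a and Scn4b, and for Scn8a and Scn3b, and did not overlap for the other neighbours.

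**Figure D1:**
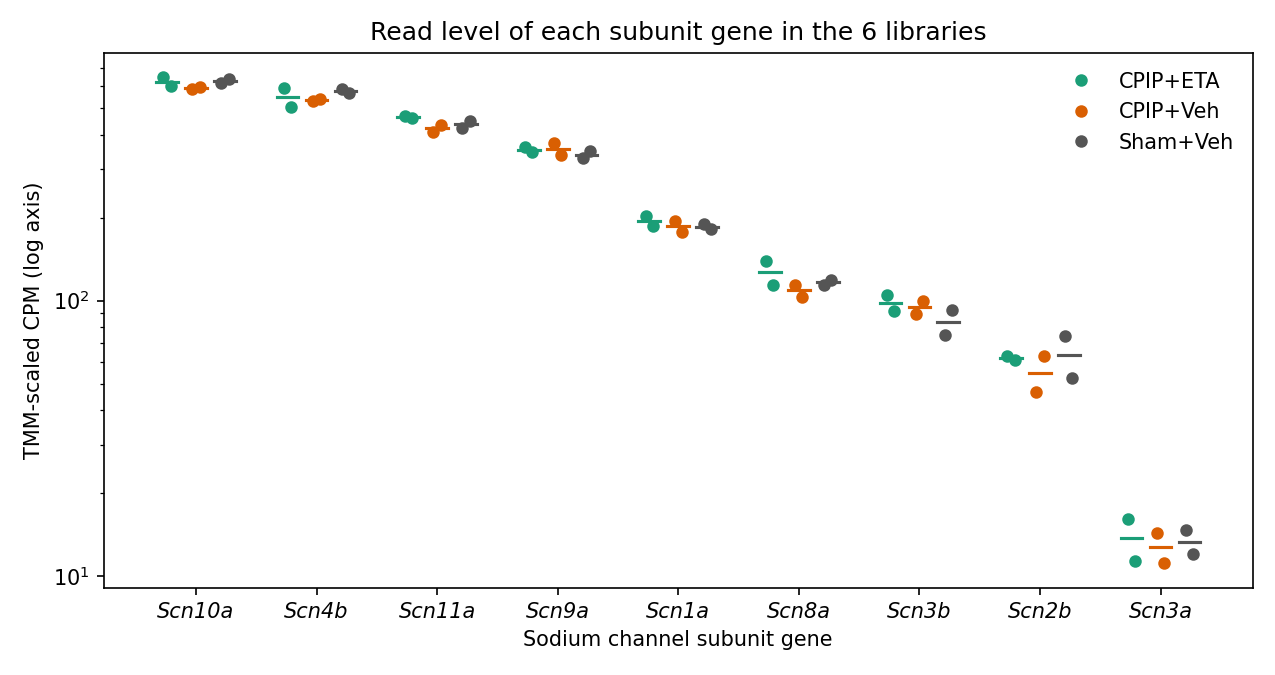
Read level of each subunit gene in TMM-scaled CPM on a log axis, ordered by mean; points are libraries, short lines are means of the 2 libraries of CPIP+ETA, CPIP+Veh and Sham+Veh. Scn10a lies between 585 and 646 CPM and Scn3a between 11.1 and 16.2 CPM, and for each gene the groups lie close together.

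Among the nociceptor channels, Scn10a stood at 646 and 600.0 CPM in CPIP+ETA, 585 and 598 CPM in CPIP+Veh, and 616 and 637 CPM in Sham+Veh. Both CPIP+Veh libraries lay below both Sham+Veh and both CPIP+ETA libraries. Of all genes tested, 19.5% were lower in CPIP+Veh than in Sham+Veh in this way, and 15.7% higher in CPIP+ETA than in CPIP+Veh. Both comparisons use the same CPIP+Veh libraries, and the share of genes with both patterns was not counted. Scn11a stood at 467 and 461 CPM in CPIP+ETA, 409 and 436 CPM in CPIP+Veh, and 425 and 449 CPM in Sham+Veh. Both CPIP+ETA libraries were above the other 4, and CPIP+Veh overlapped with Sham+Veh. In this way 15.7% of all genes were higher in CPIP+ETA than in CPIP+Veh, and 17.2% higher than in Sham+Veh. Scn9a stood at 360.2 and 346 CPM in CPIP+ETA, 373 and 339 CPM in CPIP+Veh, and 329 and 348 CPM in Sham+Veh. All 3 groups overlapped for this gene.

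Of the channels of myelinated neurons, Scn1a stood at 202 and 186.5 CPM in CPIP+ETA, 194 and 178 CPM in CPIP+Veh, and 189.6 and 182 CPM in Sham+Veh, and all 3 groups overlapped. Scn8a stood at 139.7 and 114 CPM in CPIP+ETA, 114 and 103 CPM in CPIP+Veh, and 114 and 119 CPM in Sham+Veh. The library CPIP+ETA 1 stood above the other 5, which lay within 103 to 119 CPM. The embryonic channel Scn3a stood at 16.2 and 11.4 CPM in CPIP+ETA, 14.4 and 11.1 CPM in CPIP+Veh, and 14.7 and 12.0 CPM in Sham+Veh. It rested on 209 to 321 counts per library, and the libraries of a group lay further apart than the group means.

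Of the beta subunits, Scn4b, which is disulphide-linked to the alpha subunit and whose tail can block the open pore and give resurgent current, stood at 589.8 and 503 CPM in CPIP+ETA, 529.9 and 539 CPM in CPIP+Veh, and 586 and 564 CPM in Sham+Veh. The CPIP+Veh libraries were below both Sham+Veh libraries, as for 19.5% of all genes, and the CPIP+ETA libraries lay outside the range of the others on both sides. Scn3b, which binds without a covalent link, stood at 105 and 91.5 CPM in CPIP+ETA, 89.5 and 99.9 CPM in CPIP+Veh, and 75.1 and 92.4 CPM in Sham+Veh. The library Sham+Veh 1 was the lowest and every group overlapped with the others. Scn2b, which is also disulphide-linked, stood at 63.1 and 60.9 CPM in CPIP+ETA, 46.6 and 63.0 CPM in CPIP+Veh, and 74.2 and 52.5 CPM in Sham+Veh, with the Sham+Veh libraries further apart than any pair of group means.

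The comparison of CPIP+Veh against Sham+Veh asks whether the ring alone moved the sodium channel genes, and no subunit passed the test. Called means an adjusted p under 0.05 by edgeR's quasi-likelihood test, and 0 of the 9 were called where 0.0193% of the 15531 genes were called, namely 3 genes: LOC103690108, LOC103689931 and RT1-CE10, named after their values were seen. At an unadjusted p under 0.05 there were 0 of the 9, against 4.94% of all genes (2 of the 9 without Sham+Veh 2), and DESeq2 and limma-voom also called 0. The 9 log2 fold changes ran from -0.21 (Scn2b) to 0.18 (Scn3b), with 3 above 0 and a median of -0.07, and the median over all genes tested was -0.0031. Without Sham+Veh 1 the median of the 9 was 0.04.

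The widths of the intervals show what sizes of change the data leave room for. For Scn10a the log2 fold change was -0.08 (SE 0.054, adjusted p = 0.948, edgeR, n = 2 libraries per group), and its 95% interval, not adjusted for the number of genes, ran from a change of -13.6% to 3.24%. Scn11a had -0.05 with an interval from -11.7% to 5.80%, and Scn9a 0.07 with one from -5.35% to 17.0%. Scn1a had 0.00 with an interval from -10.5% to 12.1%, and fell on the other side of 0 with scaling by library totals (-0.0030). Scn8a had -0.10 with an interval from -21.1% to 10.8%.

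The widest intervals of the 9 were those of Scn3a and Scn2b. Scn3a, the subunit known to reappear after axon damage, had a log2 fold change of -0.07 (SE 0.21, adjusted p = 0.987), with an interval from -32.3% to 34.9%. Scn2b had -0.21 (SE 0.19, adjusted p = 0.957) and an interval from -36.7% to 18.3%, Scn3b 0.18 (SE 0.12, adjusted p = 0.948) and an interval from -6.99% to 37.6%, and Scn4b -0.11 (SE 0.078, adjusted p = 0.948) and an interval from -18.3% to 5.73%. For all 9 members a doubling or a halving in bulk tissue lies outside the interval. With Sham+Veh 1 left out Scn3b had 0.04, and with Sham+Veh 2 left out it had 0.34. Of the 9 members, 2 (Scn10a and Scn4b) were lower in both CPIP+Veh libraries than in both Sham+Veh libraries and 0 were higher in both, where 19.5% of all genes were lower and 17.6% higher in this way.

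**Figure D2:**
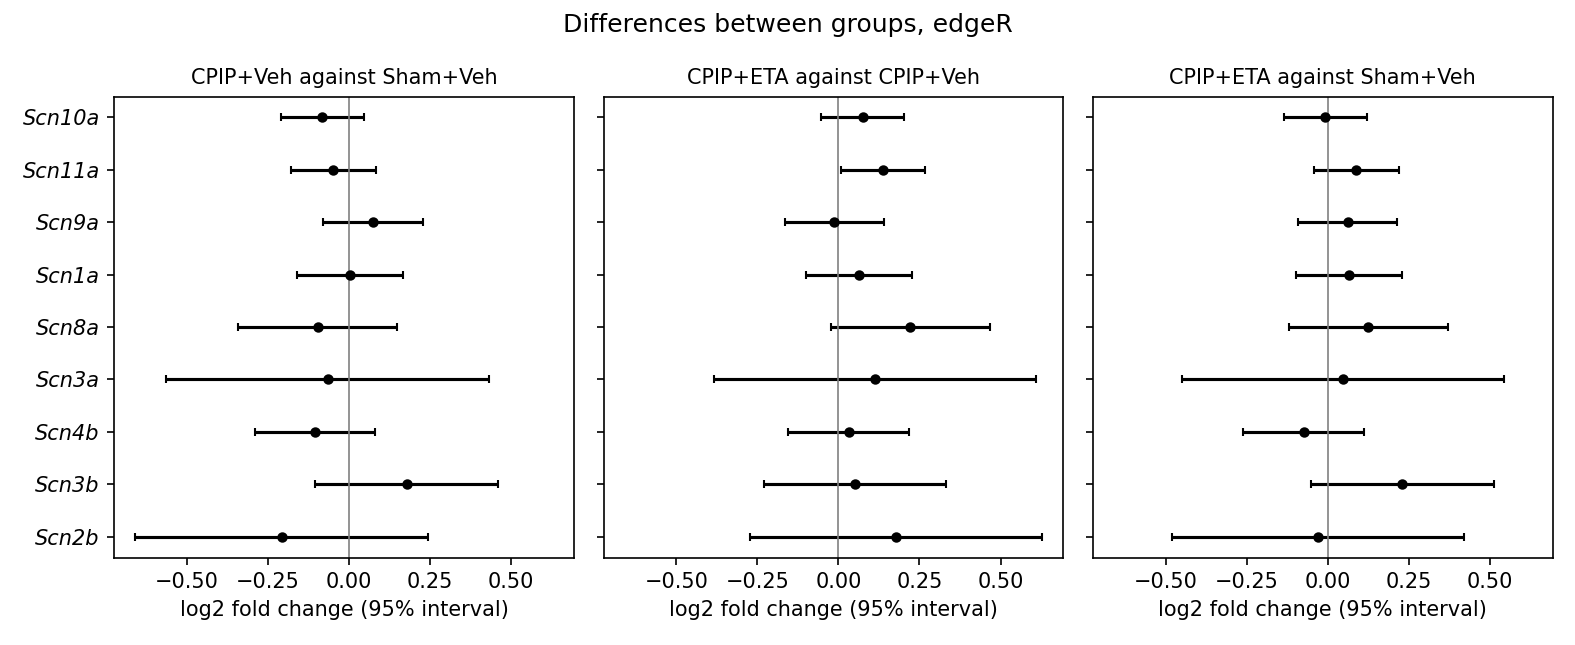
log2 fold change of each subunit in the 3 comparisons, with the 95% interval of the edgeR fit, n = 2 libraries per group; the vertical line marks no difference. The interval crosses 0 for every subunit except Scn11a in CPIP+ETA against CPIP+Veh (0.01 to 0.27), and is widest for Scn3a and Scn2b.

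Other genes were set beside the subunits in the same comparison. The lists were chosen with earlier results of these data known, so the direction of a list here is no independent support. At an unadjusted p under 0.05 stood 4.94% of all genes in this comparison. The axon injury markers had 7 tested members, all 7 above 0, with a median log2 fold change of 0.87, 0 called and 6 at an unadjusted p under 0.05. Of these markers, the calcium channel subunit Cacna2d1 had 0.47 (SE 0.090, adjusted p = 0.507) and the transcription factor Sox11 0.87 (SE 0.20, adjusted p = 0.711). The 2 CPIP+Veh libraries differed in this list, which summed to 620 CPM in CPIP+Veh 1 and 815 CPM in CPIP+Veh 2, beside 546 and 500 CPM in Sham+Veh. Atf3, for example, stood at 16.25 and 42.07 CPM in CPIP+Veh. The 8 nociceptor markers had a median of 0.00 with 0 called, and the intermediate filament Prph had the lowest p, at 0.18 (SE 0.043, adjusted p = 0.752). The 8 pan-neuronal markers had a median of 0.03 with 0 called, and 5 of the 8 above 0. At an unadjusted p under 0.05, Rbfox3, the nuclear antigen NeuN, was at -0.19 (SE 0.059, adjusted p = 0.938), and the other way stood the neuronal tubulin Tubb3 at 0.15 (SE 0.057) and the microtubule regulator Stmn2 at 0.12 (SE 0.045), both with an adjusted p of 0.938. The 8 large sensory neuron markers had a median of -0.04 with 0 called, and Whrn, a scaffold of sensory endings, had -0.31 (SE 0.093, adjusted p = 0.938).

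The comparison of CPIP+ETA against CPIP+Veh asks whether etanercept moved the same genes. No subunit was called by edgeR, DESeq2 or limma-voom, and edgeR called 0% of all genes in this comparison (smallest adjusted p = 0.721, with DESeq2 at 21 genes). Scn11a was the only 1 of the 9 with an unadjusted p under 0.05 in this comparison, against 5.15% of all genes. It was also the only 1 of the 27 tests of the members over the 3 comparisons. The shares of all genes were 4.94% for CPIP+Veh against Sham+Veh and 6.37% for CPIP+ETA against Sham+Veh. Scn11a averaged 464 ± 4.1 CPM in CPIP+ETA and 422 ± 19 CPM in CPIP+Veh (SD, n = 2 each), a log2 fold change of 0.14 (SE 0.055, adjusted p = 0.938, edgeR), with an unadjusted interval from 0.464% to 20.4%. With only these 2 groups in the fit, none of the 9 had an unadjusted p under 0.05.

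Of the 9 members 8 lay above 0, from -0.01 (Scn9a) to 0.22 (Scn8a), with a median of 0.08, where 49.55% of all genes lay above 0 and their median was -0.0016. This comparison shares the CPIP+Veh libraries with the one against Sham+Veh. Scn8a had 0.22 (SE 0.10, adjusted p = 0.938) with an interval from -1.57% to 38.2%, and its log2 fold change was 0.07 without the library CPIP+ETA 1 and 0.36 (SE 0.080, adjusted p = 0.440) without CPIP+ETA 2. The median of the 9 was 0.01 without CPIP+ETA 1 and 0.15 without CPIP+ETA 2, where 9 lay above 0 and 3 had an unadjusted p under 0.05. Scn10a had 0.08 (interval -3.63% to 15.2%), Scn1a 0.06, Scn3a 0.11, Scn2b 0.18, Scn3b 0.05 and Scn4b 0.03. Scn10a and Scn11a were higher in both CPIP+ETA libraries than in both CPIP+Veh libraries, and 0 members were lower, where 15.7% of all genes were higher and 16.9% lower in this way.

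Markers of neurons and glia were read in the same comparison, and none was called by edgeR. By median log2 fold change the pan-neuronal list stood at 0.07 with 5 of 8 above 0, the large sensory neuron list 0.05 with 5 of 8, and the nociceptor list 0.05 with 5 of 8. The Schwann cell list had -0.12 with 7 of 8 below 0, and the satellite glia list 0.06 with 6 of 8 above 0. The axon injury list had -0.44 with 7 of 7 below 0 and 3 at an unadjusted p under 0.05, against 5.15% of all genes. It summed to 517.5 and 596 CPM in CPIP+ETA and to 620 and 815 CPM in CPIP+Veh. This comparison shares its CPIP+Veh libraries with the one above. The part of these markers in the subunits' values was not tested.

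CPIP+ETA was also set against Sham+Veh. No subunit was called by edgeR, where 0.0193% of all genes were called (the 3 genes named above for CPIP+Veh), none had an unadjusted p under 0.05, against 6.37% of all genes, and DESeq2 and limma-voom called 0 of the 9. The largest difference was that of Scn3b, at 98.2 ± 9.4 CPM in CPIP+ETA and 83.7 ± 12 CPM in Sham+Veh (SD, n = 2 each; log2 fold change 0.23, SE 0.12, adjusted p = 0.825), with an interval from -3.59% to 42.6%. Scn10a had -0.01 with an interval from -8.99% to 8.77%, Scn11a 0.09 with -2.90% to 16.3%, and Scn9a 0.06 with -6.16% to 16.0%. Scn1a had 0.07, Scn8a 0.12, Scn3a 0.05, Scn2b -0.03 and Scn4b -0.07. The median of the 9 was 0.06, with 6 above 0, and -0.02 without CPIP+ETA 1. Scn11a was higher in both CPIP+ETA libraries than in both Sham+Veh libraries and 0 members were lower in both, against 17.2% and 18.5% of all genes.

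The spread between libraries of a group differed widely between members. The libraries of a group differed by at most 0.11 on the log2 scale for Scn10a and 0.09 for Scn11a, but by up to 0.50 for Scn2b (Sham+Veh) and 0.51 for Scn3a (CPIP+ETA). Over the 10221 genes with a mean of at least 10 CPM the median gap between the libraries of a group was 0.08 to 0.10, and 90% of them had a gap under 0.23 to 0.29. For 8 of the 9 members the largest gap within a group exceeded every difference between groups, and Scn11a was the exception. A gap is between single libraries and a difference is between groups of 2 libraries, which vary less. The largest gap can thus exceed the differences with or without an effect. The share of all genes with such a gap was not counted. Counting error alone would give a coefficient of variation of 2.95% for Scn2b and 6.27% for Scn3a, and the values over the 6 libraries were 15.9% and 15.5%.

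**Figure D3:**
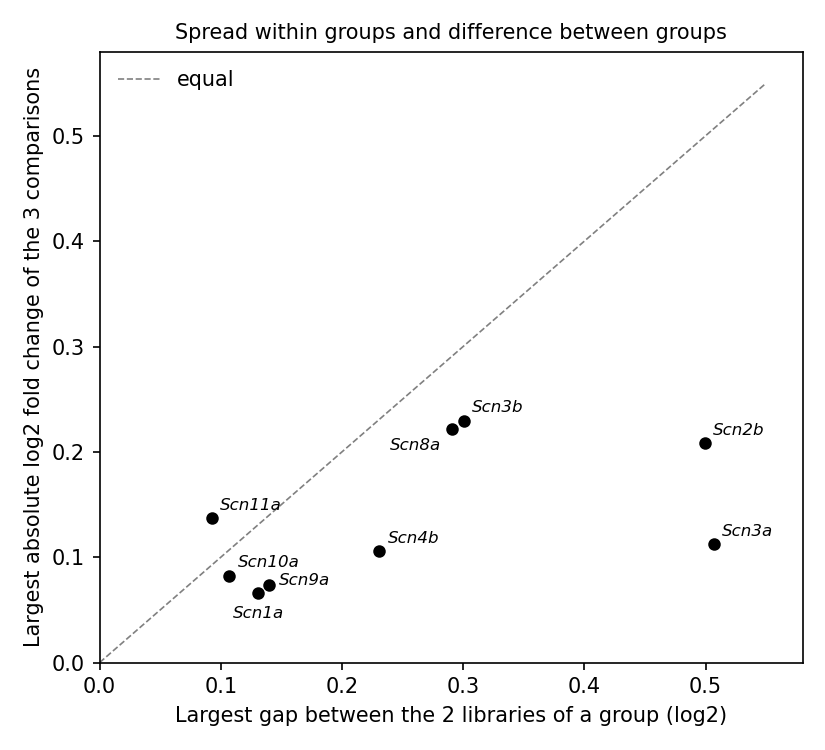
For each subunit, the largest gap between the 2 libraries of any group (horizontal, log2) and the largest absolute log2 fold change of the 3 comparisons (vertical); the dashed line marks equality. Scn11a (0.09 and 0.14) lies above the line, and the other 8 lie below it. Gaps are between single libraries and fold changes between groups of 2, so a place below the line is no test of an effect.

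The makeup of the alpha subunit reads, which does not depend on scaling between libraries, was also close between groups. Scn10a and Scn11a together gave 60.8% and 61.7% of the reads of the 6 alpha subunits in CPIP+ETA libraries, 58.8% and 62.1% in CPIP+Veh libraries, and 61.6% and 62.2% in Sham+Veh libraries. The library CPIP+Veh 1 was the lowest, with an exact 95% binomial interval of 58.3% to 59.3% that covers counting error only, and the other CPIP+Veh library lay within the Sham+Veh range. With 2 libraries against 2 an exact permutation test cannot reach p < 0.05, so no test is given. Scn9a took 22.1% in CPIP+Veh 1 and 19.5% to 20.4% in the other 5 libraries. Scn3a took 0.66% to 0.88%.

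**Figure D4:**
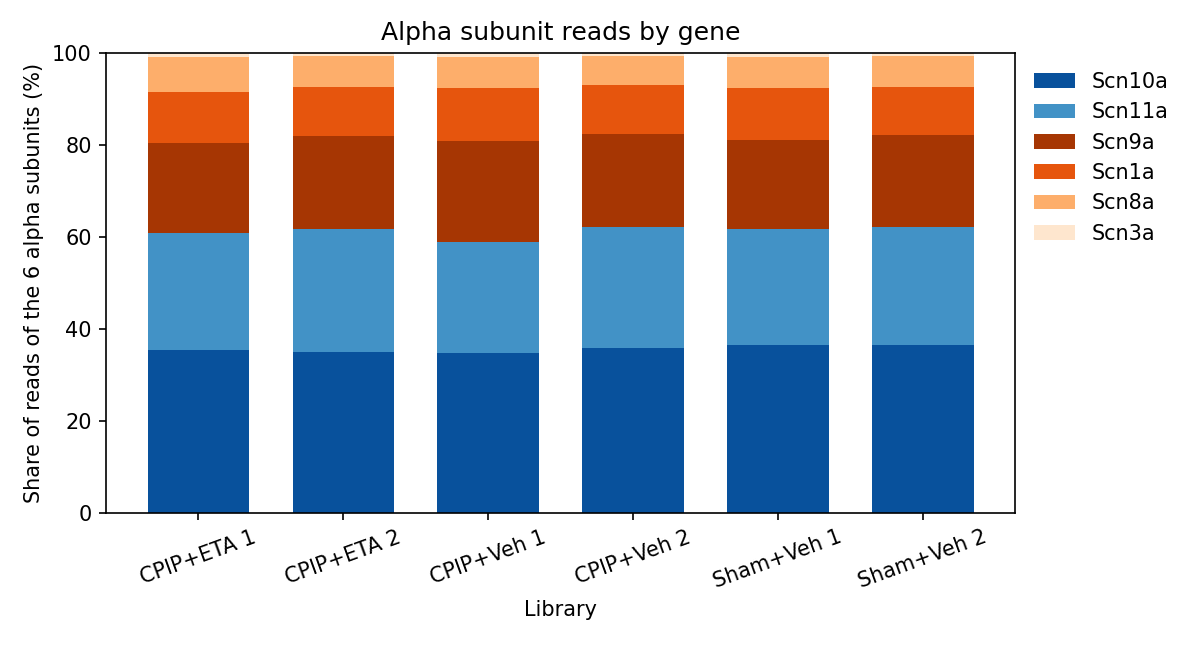
Share of each gene in the reads of the 6 alpha subunits, in percent, 1 bar per library of CPIP+ETA, CPIP+Veh and Sham+Veh. The blue segments, Scn10a and Scn11a, reach 58.8% to 62.2% in every library.

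Ratios of reads of a pair of genes within a library show the same spread. Scn9a reads per Scn10a read were 0.557 and 0.576 in CPIP+ETA, 0.638 and 0.567 in CPIP+Veh libraries, and 0.534 and 0.546 in Sham+Veh libraries. All 4 CPIP libraries were above the Sham+Veh libraries. More ratios were computed than are given here, and how often other pairs of genes separate in this way was not counted. Scn11a reads per Scn10a read were 0.723 and 0.769 in CPIP+ETA, 0.698 and 0.729 in CPIP+Veh libraries, and 0.689 and 0.705 in Sham+Veh libraries. Scn3b reads per Scn2b read were 1.66 and 1.50 in CPIP+ETA, 1.92 and 1.58 in CPIP+Veh libraries, and 1.01 and 1.76 in Sham+Veh libraries, where the Sham+Veh libraries enclosed 3 of the 4 others. The lengths of the genes cancel in a comparison of one ratio between groups.

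Across the 6 libraries, 2 from each group, pairs of members had Pearson correlations of log2 CPM from -0.80 (Scn9a and Scn2b) to 0.90 (Scn1a and Scn3a), given as a description. Among 9732 genes outside the family with a mean of at least 10 CPM, those most like Scn10a were Zfp346 (r = 0.995), Slc35a2, a transporter of UDP-galactose (0.990), and Dpp6, an auxiliary subunit of potassium channels (0.989). Most like Scn11a were the globin Hbb (0.973), the cytoskeletal linker Dst (0.966) and Chrnb3, a nicotinic receptor subunit (0.965). Most like Scn9a were Dnlz (0.980), Lgi2 (0.977) and Fbxw9 (0.971). With 6 libraries, 0.986%, 0.668% and 0.606% of those genes had r over 0.9 with Scn10a, Scn11a and Scn9a.

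Other genes of the family were measured too. Scn7a, a channel-like protein that senses sodium rather than voltage and is also expressed by Schwann cells, stood at 868 and 895 CPM in CPIP+ETA, 937 and 839 CPM in CPIP+Veh, and 881 and 785 CPM in Sham+Veh. The leak channel Nalcn stood at 94.3 to 98.9 CPM in all 6 libraries, and Scn2a, a channel of central neurons, at 13.5 to 14.8 CPM. The skeletal muscle channel Scn4a stood at 4.56 to 6.75 CPM, with 5.80 CPM in CPIP+Veh 2, the library with the most muscle marker reads. None of these 4 genes was called by edgeR in any comparison and none had an unadjusted p under 0.05, with log2 fold changes of -0.16 to 0.09 for CPIP+Veh against Sham+Veh, -0.09 to 0.27 for CPIP+ETA against CPIP+Veh and -0.07 to 0.11 for CPIP+ETA against Sham+Veh.

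Of 20 partners of the channels (anchoring, trafficking and gating proteins), 20 were tested and 0 were called in any comparison. Over all genes, 0.0193% were called for CPIP+Veh against Sham+Veh, 0% for CPIP+ETA against CPIP+Veh and 0.0193% for CPIP+ETA against Sham+Veh. For CPIP+Veh against Sham+Veh 11 lay above 0 with a median of 0.01. At an unadjusted p under 0.05 stood 1 of the 20, against 4.94% of all genes, so the count is near that share. That was Fgf13, a cytosolic factor that binds the tail of the alpha subunit, at 527 ± 3.1 CPM in CPIP+Veh and 474 ± 6.4 CPM in Sham+Veh (SD, n = 2 each; log2 fold change 0.15, SE 0.045, adjusted p = 0.938). S100a10, which carries the Scn10a channel to the membrane, had 0.13 (SE 0.057) and the axonal adhesion protein Cntn1 0.10 (SE 0.059). For CPIP+ETA against CPIP+Veh 9 lay above 0 with a median of -0.01 and 0 had an unadjusted p under 0.05, against 5.15% of all genes. The lowest p were those of S100a10 (-0.13, SE 0.057), Ank3, the ankyrin that anchors channels at the axon initial segment (0.09, SE 0.048), and Ank2 (0.08, SE 0.053). For CPIP+ETA against Sham+Veh 13 lay above 0 with a median of 0.01. An unadjusted p under 0.05 was found for 2 of the 20, against 6.37% of all genes. These were Ank3 (0.12, SE 0.048, adjusted p = 0.763) and Fgf13 (0.12, SE 0.045, adjusted p = 0.767), followed by Ank2 (0.08, SE 0.053).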

How the data were processed

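The deposited table gives 1 value per gene for each of 6 bulk RNA-seq libraries. The authors deposited expected counts (estimates of reads, of which 32.7% were whole numbers). Trizol was used for extraction and a BGISEQ-500 for sequencing, per the labels' protocols. Rnor_6.0 is named as the build, per the submitters' processing notes. Which aligner, counter, annotation and strand setting were used is not given in the sources used here. No transcript lengths were used, so the levels of different genes were not set per length.

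Columns were assigned by their titles. Blank cells (2907 genes) were read as 0 and counts were rounded. Genes passed filterByExpr (minimum count 10, minimum total 15), which left 15531. Expression was tested in R 4.3.3 with edgeR 4.0.16 (TMM scaling, quasi-likelihood F-test, 1 fit of the 6 libraries, group as the only term, 3 residual degrees of freedom) and adjusted over all genes by Benjamini-Hochberg. SE is the log2 fold change over the square root of F, and 95% intervals use the fit's degrees of freedom. The procedure was tested on simulated data. Correlations used log2 CPM with a prior count of 2. Gene order and start regions came from RefSeq tables of GRCr8, matched by gene ID.

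The members and lists were chosen with earlier results of these data known. Named were all members, other genes of the family (some are not reported here), the 3 partners with the lowest p per comparison, up to 2 markers with the lowest p in a list (Tubb3 and the spinal cord markers were added after their values were seen), and the 3 genes most like each of the 3 alpha subunits with the most reads. Of the marker lists, endothelial and macrophage are given only in the closing section. Alternatives were other scalings, no filter, DESeq2 1.42.0, limma-voom (limma 3.58.1), fewer samples and a block. Figures were drawn with matplotlib 3.10.9.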

Additional observations from a re-analysis of the deposited data

How the results depend on the processing

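No sodium channel subunit was called in any comparison under any of the 13 alternatives. Of the members' recomputed log2 fold changes 329 kept their sign and 22 changed it. One change of sign came from scaling by library totals, Scn1a at -0.0030 for CPIP+Veh against Sham+Veh, and the others from leaving out a library. Lowest and highest values with a library left out follow, with the library whose absence changed the sign in brackets. For CPIP+Veh against Sham+Veh they ran for Scn3a -0.26 to 0.11 (Sham+Veh 1 or CPIP+Veh 2), Scn2b -0.44 to 0.070 (Sham+Veh 1) and Scn1a -0.063 to 0.066 (Sham+Veh 2 or CPIP+Veh 1). For CPIP+ETA against CPIP+Veh they ran for Scn9a -0.081 to 0.063 (CPIP+Veh 1 or CPIP+ETA 2), Scn2b -0.020 to 0.41 (CPIP+Veh 1), Scn3b -0.048 to 0.15 (CPIP+Veh 1 or CPIP+ETA 1), Scn1a -0.00075 to 0.13 (CPIP+Veh 2), Scn3a -0.16 to 0.34 (CPIP+Veh 2 or CPIP+ETA 1) and Scn4b -0.086 to 0.14 (CPIP+ETA 1). For CPIP+ETA against Sham+Veh they ran for Scn2b -0.26 to 0.25 (Sham+Veh 1), Scn3a -0.22 to 0.28 (Sham+Veh 2 or CPIP+ETA 1), Scn10a -0.054 to 0.049 (Sham+Veh 2 or CPIP+ETA 2), Scn8a -0.021 to 0.27 (CPIP+ETA 1) and Scn4b -0.19 to 0.041 (CPIP+ETA 2). The median of the 9 for CPIP+Veh against Sham+Veh was 0.040 without Sham+Veh 1 and at lowest -0.063 without another library. The smallest adjusted p of any member over these alternatives was 0.393 (Scn8a, CPIP+ETA against Sham+Veh without CPIP+ETA 2).

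Over all genes, the counts called for CPIP+Veh against Sham+Veh, CPIP+ETA against CPIP+Veh and CPIP+ETA against Sham+Veh were 3, 0 and 3 with edgeR, and 49, 21 and 50 with DESeq2. For the last, limma-voom gave 1 and a fit of only its 2 groups 1. With a library left out the counts were 1 to 3, 0 and 1 to 2, where a lone library was assumed to vary like the other groups. The 1 came without CPIP+Veh 2 in the first comparison, and without CPIP+Veh 1, CPIP+Veh 2 or CPIP+ETA 1 in the last. With the replicate number as a block they were 3, 0 and 3. Deviations of same-numbered libraries correlated at -0.084 (CPIP+Veh and Sham+Veh), -0.14 (CPIP+ETA and Sham+Veh) and 0.16 (CPIP+ETA and CPIP+Veh) over 10221 genes. Correlations over all genes cannot decide whether the number marks a batch that acts on some genes. With the block Scn3a had -0.07 (SE 0.11), 0.10 (SE 0.11) and 0.03 (SE 0.11).

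An order per kilobase was not run, since no transcript length was used here and the RefSeq gene span includes introns. With 2 libraries per group and 209 to 321 counts of Scn3a per library, the data leave room for any change of that gene within its edgeR interval.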

Other observations

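Cell type markers that do not bear neuronal channels were measured in the same fits, with 8 genes per list and 0 called by edgeR. Endothelial markers had a median log2 fold change of -0.26 for CPIP+Veh against Sham+Veh, with 7 of 8 below 0. Of the 8, 4 had an unadjusted p under 0.05, against 4.94% of all genes. For CPIP+ETA against Sham+Veh the median of these markers was -0.21, with 6 of 8 below 0. Their summed level was 171 and 204 CPM in CPIP+ETA, 183 and 173 CPM in CPIP+Veh, and 207 and 212 CPM in Sham+Veh. Macrophage markers had a median of 0.14 for CPIP+ETA against CPIP+Veh, with 6 of 8 above 0. They summed to 215 and 218 CPM in CPIP+ETA, 158 and 186 CPM in CPIP+Veh, and 178 and 171 CPM in Sham+Veh. An unadjusted p under 0.05 was found for 2 of the 8, against 5.15% of all genes. These were Cd163 (1.65, SE 0.23) and Mrc1 (0.84, SE 0.17), while Csf1r and Adgre1 had 0.07 and Aif1 and Cd68 lay below 0. Satellite glia markers summed to 4880 and 4736 CPM in CPIP+ETA, 4823 and 4707 CPM in CPIP+Veh, and 4925 and 5287 CPM in Sham+Veh, sums that the lipid carrier Apoe mostly made. By median log2 fold change they stood at -0.04 for CPIP+Veh against Sham+Veh, 0.06 for CPIP+ETA against CPIP+Veh and 0.04 for CPIP+ETA against Sham+Veh.

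Scn1a and Scn3a, whose levels ran together over the 6 libraries, were both higher in the library numbered 1 than in the one numbered 2 in all 3 groups. No other member of the 9 did this. Whether the number marks a shared batch is not given in the sources used here, and a cause was not tested.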
